A study of Mus musculus with 6 samples.

Results

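The transcription factors described here are 9 genes that act in the specification of muscle cells and in their differentiation: Pax3, Pax7, Six4, Myf5, Myod1, Myog, Myf6, Mef2c and Msc. They were chosen by name, with earlier results of these data known, and found through the accession of each array probe. They had 10 probes among 55658 and are 9 of the 37153 genes and unnamed features on the array. A gene entered the fit if some group had both of its arrays well above background. Of the 9 genes 6 did, among 25055 genes and features.

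Gene expression was measured on 6 one-colour arrays, 2 for each of 3 kinds of cultured mouse cell. Muscle-derived stem cells (MDSC) came from whole hindlimb muscle of 5 week old male mice, either null for Mstn, the gene of the muscle growth inhibitor myostatin, or wild type (WT), as the last fraction to adhere in serial replating. Each genotype had 2 isolations, taken at passage 1. The ESC arrays hold passages 12 and 15 of 1 established mouse embryonic stem cell line, W4. The Mstn allele and the number of mice per isolation are not given in the sources used here. The labels name the ESC colonies as free of feeders, while the growth protocol describes feeder fibroblasts, removed by brief plating before RNA was taken.

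Skeletal muscle is specified by a small network of transcription factors. Pax3 and Pax7 mark muscle progenitors, and Pax7 also marks satellite cells, the resident stem cells of adult muscle. Six4 and its relatives act beside them, and together these factors switch on the basic helix-loop-helix genes Myf5 and Myod1, which commit a cell to the muscle fate. Myog and Myf6 act later, in differentiation, where they bind E-boxes in muscle genes with E proteins as partners and with Mef2 proteins as cofactors. Msc (musculin, also called MyoR) binds the same kind of site and represses it.

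Myog is the gene in which these inputs meet, so the 250 bases before its start site are shown. The sequence is RefSeq's on GRCm38.p6, plus strand, chr1:134289754-134290003. Capitals mark every match to an E-box (CANNTG), to MEF3, a site bound by Six4 and its relatives (TCAGGTTTC), and to a loose core of the Mef2 site (CTANNNNTA).
Myog promoter: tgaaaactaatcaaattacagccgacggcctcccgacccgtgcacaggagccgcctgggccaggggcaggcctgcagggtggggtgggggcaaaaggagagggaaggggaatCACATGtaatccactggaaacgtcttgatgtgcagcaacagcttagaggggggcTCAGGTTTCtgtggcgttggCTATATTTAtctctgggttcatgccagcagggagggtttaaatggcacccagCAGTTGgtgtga
Read on both strands, the window of 250 bases before and 50 after the start site held 2 E-boxes, CACATG at position -138 and CAGTTG at position -12, counted from the start site. It also held 1 MEF3 match at -84 and 1 Mef2 core, CTATATTTA, at -64, and none of these matches overlapped another. An E-box was found in 72.3% of the 32851 promoter windows of the same length, a Mef2 core in 21.0% and a MEF3 match in 0.429%. All 3 motifs stood together in 27 windows. Of the 9 genes, 5 had a window in the table (Pax7, Myf5, Myog, Six4 and Mef2c, with 8 windows), and besides Myog only a Six4 window held a MEF3 match, at -99 on the other strand. These matches describe letters in a window and do not show that a factor was bound.

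Values below are log2 signals relative to the 75th percentile of the array, so that 0 is the level that 3 in 4 spots do not reach. The 75th percentile lay at 550 to 647 intensity units, 53.3% to 64.6% of the 59305 spots per array were well above background and none was saturated. The number of arrays limits the precision. The probe of Mstn, which could check the labels, gave log2 signals of -3.06 and -2.47 in the cultures labelled Mstn-null, where it was well above background. It was not so in WT (-4.90 and -6.71) or in ESC (-7.23 and -6.85). Mstn was at least 3.81-fold higher in the cultures labelled Mstn-null than in those labelled WT, without passing the test (limma, adjusted p = 0.135). No loss of Mstn was seen, and whether the probe lies within the deleted part is not given, so every direction between genotypes below rests on the labels alone. Both WT arrays lay on 1 slide and the other 4 arrays on the other, so an effect of the slide and one of the WT group cannot be told apart. Replicate arrays had a Pearson r of 0.977 to 0.987 over genes, given as a description only.

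In MDSC cultures of both genotypes, the late factor Myog and the cofactor Mef2c were higher than in ESC, and Myod1 was higher in WT MDSC. The repressor gene Msc and the homeobox gene Six4 were lower in MDSC of both genotypes. Pax3 did not differ by the test. The founding factors Pax7 and Myf5 and the late factor Myf6 were not measured well enough to test: Myf5 was not well above background on any of the 6 arrays.

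**Figure D1:**
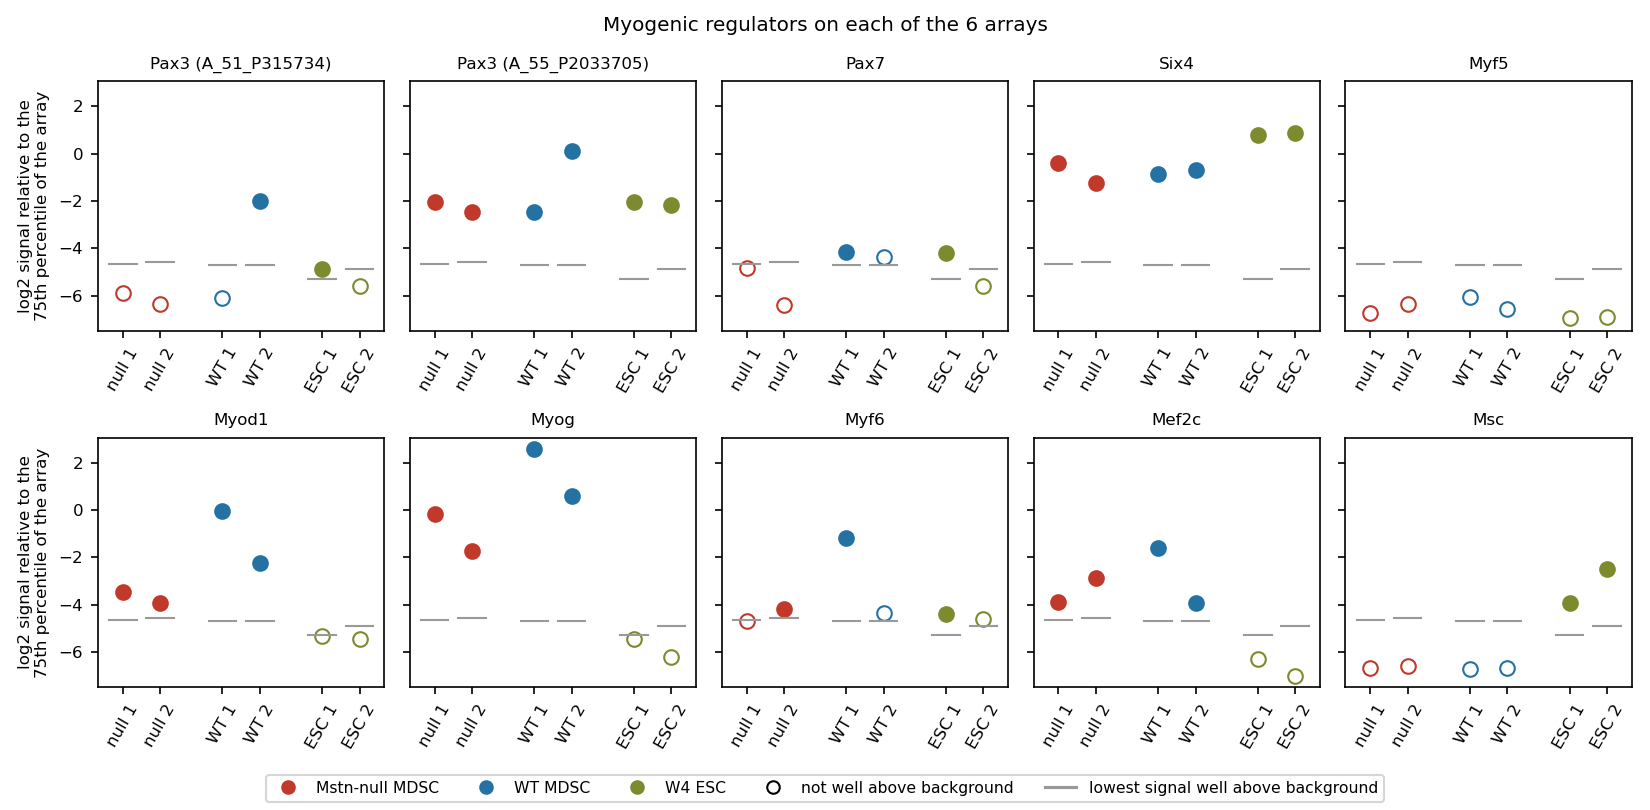
Log2 signal relative to the 75th percentile of each array (vertical axis) for the 10 probes of the 9 genes on the 2 Mstn-null, 2 WT and 2 ESC arrays (horizontal axis); each point is 1 array, open points are not well above background, and grey lines give the lowest signal well above background on that array. Myog and Myod1 were highest in WT MDSC, Msc was well above background only in ESC, and Pax3 and Myf6 each stood out on 1 WT array.

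By limma's test, with an adjusted p under 0.05 as the threshold, 2 of the 9 genes were higher and 2 lower in Mstn-null MDSC than in ESC, where 23.3% of all 25055 genes and features tested were higher and 30.8% lower (54.2% in all). In WT MDSC, 3 were higher and 2 lower than in ESC, against 27.1% and 25.9% of all genes (53.1% together). The mean of both MDSC groups gave 3 higher and 2 lower, against 28.3% and 31.4% (59.6% together). With most genes called, such counts do not set these genes apart. The median log2 difference from ESC of the 6 genes tested was 0.77 in Mstn-null MDSC and 2.40 in WT MDSC, where the median of all genes was -0.12 and 0.03. Myog, Myod1 and Mef2c entered the fit through MDSC arrays alone, and Msc through ESC arrays alone. Their differences from ESC use signals not well above background, so these medians do not set the genes apart either. The 3 comparisons share the ESC arrays, and those of each genotype share arrays with their mean.

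Among the early factors, Pax3 had 2 probes, which cannot be compared in level. By the brighter one (A_55_P2033705, 1 spot per array), well above background on all 6 arrays, Pax3 had log2 signals of -2.02 and -2.46 in Mstn-null MDSC, -2.47 and 0.12 in WT MDSC and -2.03 and -2.17 in ESC. Only WT replicate 2 stood above the rest, 5.98-fold above WT replicate 1, and the groups overlapped. The difference from ESC was -0.14 ± 0.84 (SE, n = 2 and 2 arrays, limma adjusted p = 0.898) in Mstn-null MDSC and 0.93 ± 0.84 (adjusted p = 0.386) in WT MDSC. The intervals at 95% confidence ran from -2.30 to 2.02 and from -1.23 to 3.08, so changes of several fold either way could not be detected.

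The second Pax3 probe (A_51_P315734, 10 spots per array) was not tested, as it was well above background on 1 WT and 1 ESC array only. It gave 148.8 ± 4.70 intensity units (SD of 9 spots) on WT replicate 2, where all 9 spots used were well above background, and 8.86 ± 2.65 units on WT replicate 1, where none of 10 was. It read 10.5 and 7.11 units in Mstn-null MDSC, and 22.5 and 14.9 units in ESC, with 5 of 9 spots well above background on ESC replicate 1. Both Pax3 probes thus had their highest signal on WT replicate 2. Without WT replicate 1, the remaining WT array was above ESC by 2.22 at the brighter probe, and without WT replicate 2 the difference was -0.37, so the WT value rests on 1 array.

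Pax7, by its 1 spot per array, had log2 signals of -4.84 and -6.40 in Mstn-null MDSC, -4.16 and -4.35 in WT MDSC, and -4.19 and -5.57 in ESC. The spot was well above background on WT replicate 1 and ESC replicate 1 and on no other array, so Pax7 was not tested. These signals lay between -6.40 and -4.16, while the lowest signal of any probe well above background was between -5.29 and -4.56 on the 6 arrays.

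Six4, a homeodomain factor that binds MEF3 sites, was measured on all 6 arrays. Its log2 signals were -0.39 and -1.22 in Mstn-null MDSC, -0.85 and -0.67 in WT MDSC, and 0.79 and 0.89 in ESC. Every MDSC array lay under both ESC arrays. Six4 was lower than in ESC by 1.65 in Mstn-null MDSC (log2 difference -1.65 ± 0.31, adjusted p = 0.00981) and by 1.60 in WT MDSC (-1.60 ± 0.31, adjusted p = 0.0112). The WT call ended when WT replicate 1 was left out (-1.51, adjusted p = 0.055) and when ESC replicate 2 was (-1.55, adjusted p = 0.0541).

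Of the commitment factors, Myf5 averaged 5.63 and 6.79 intensity units over its spots in Mstn-null MDSC, 9.32 and 6.84 in WT MDSC, and 5.56 and 5.36 in ESC. None of the 9 or 10 spots used per array was well above background. Its level was therefore not measured in any group and no difference is given.

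Myod1 was also read by 10 spots per array. It averaged 54.1 ± 6.86 and 36.3 ± 6.67 intensity units in Mstn-null MDSC (SD over spots), 557.2 ± 24.8 and 126.1 ± 14.7 units in WT MDSC, and 18.3 ± 9.13 and 16.6 ± 8.54 units in ESC. The corresponding log2 signals were -3.48 and -3.94, then -0.04 and -2.24, then -5.33 and -5.46. All used spots on the MDSC arrays were well above background, as were 4 and 3 of 10 spots in ESC, too few for the probe to count as well above background there. The 3 groups did not overlap.

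Because ESC gave only an upper bound, the fold for Myod1 is a lower bound. It was at least 15.4-fold higher in WT MDSC than in ESC (adjusted p = 0.00798). The fitted log2 difference of 4.25 behind that bound was 3.15 without WT replicate 1, 5.35 without WT replicate 2 and 2.10 with normexp background correction, a smaller change than the bound. In Mstn-null MDSC the bound was 2.60-fold, with a fitted difference of 1.68 ± 0.73 and an interval from -0.18 to 3.55, which did not pass (adjusted p = 0.106). That comparison passed in a fit of the 4 Mstn-null and ESC arrays, which shared a slide (adjusted p = 0.00772), and without either WT array (adjusted p = 0.00881 without replicate 1 and 0.00852 without replicate 2), at the same difference of 1.68. WT arrays enter it only through the shared estimate of the spread. For the mean of both genotypes, the call at a bound of 6.33-fold was lost with normexp background correction (adjusted p = 0.0583) and when either ESC array was left out (adjusted p = 0.0631 without replicate 1 and 0.0739 without replicate 2).

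Myog, the factor that carries committed myoblasts into differentiation, gave 538.4 ± 24.9 and 163.9 ± 9.30 intensity units in Mstn-null MDSC (SD over 10 spots), 3424 ± 128.9 and 885.3 ± 24.4 units in WT MDSC, and 14.8 ± 2.59 and 9.36 ± 3.11 units in ESC (9 and 10 spots). On the log2 scale these were -0.16 and -1.75, then 2.58 and 0.58, then -5.44 and -6.19. All 10 spots were well above background on each MDSC array, against 1 of 9 and 0 of 10 in ESC. The 3 groups did not overlap.

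Myog was at least 17.6-fold higher in Mstn-null MDSC than in ESC (adjusted p = 0.00817) and at least 102-fold higher in WT MDSC (adjusted p = 0.00281). Both calls held in all alternatives run in which Myog was tested, with adjusted p up to 0.0479 and 0.0203, but their sizes did not. The fitted log2 differences were 4.87 in Mstn-null MDSC and 7.39 in WT MDSC, and with normexp 2.37 and 4.63, smaller than the bounds. With 1 array left out they ranged from 4.07 (without Mstn-null replicate 1) to 5.66 (without Mstn-null replicate 2) and from 6.40 (without WT replicate 1) to 8.39 (without WT replicate 2). Replicates differed far more than spots did: the higher array stood 3.02-fold above the other in Mstn-null MDSC and 4.0-fold above it in WT MDSC, while the SD over spots on these arrays was between 24.4 and 128.9 units on WT arrays and 9.30 and 24.9 units on Mstn-null arrays.

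**Figure D2:**
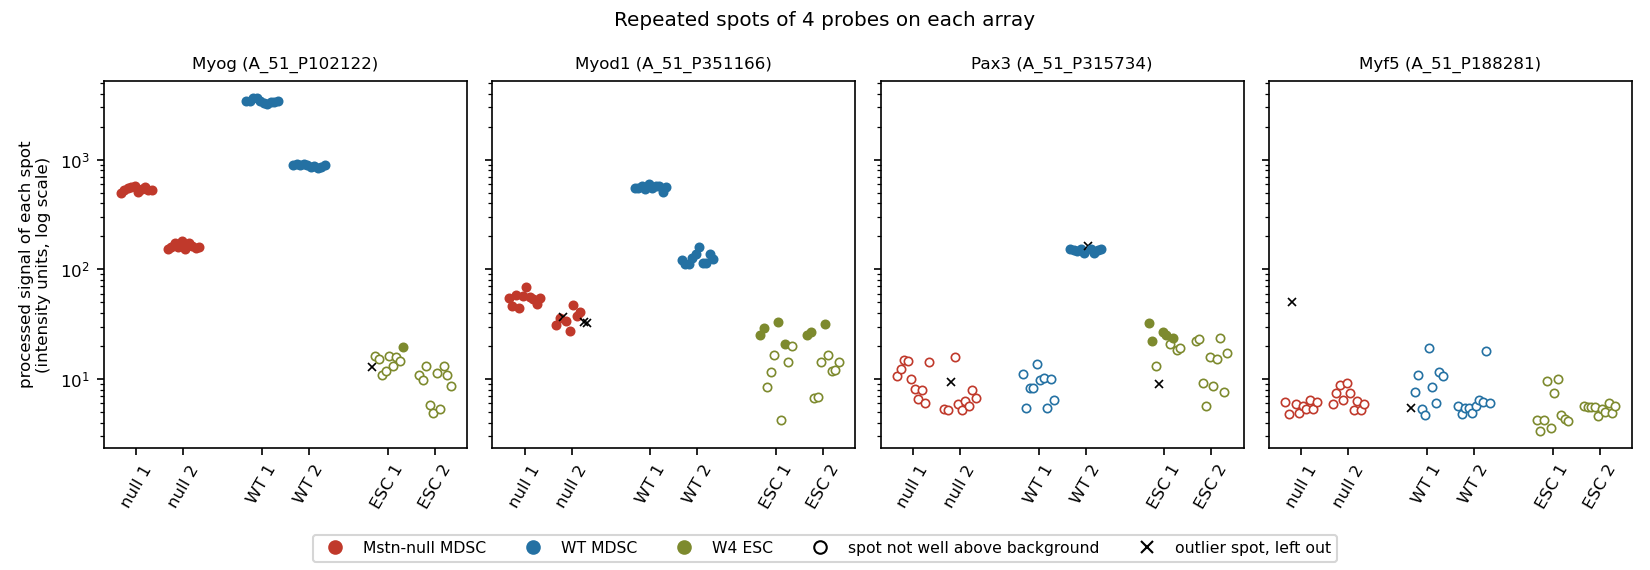
Processed signal of every repeated spot in intensity units (log scale) for 1 probe each of Myog, Myod1, Pax3 and Myf5 on the Mstn-null, WT and ESC arrays; open circles are spots not well above background and crosses are spots left out as outliers. Spots of 1 array lie close together for Myog, at 538.4 ± 24.9 and 163.9 ± 9.30 units in Mstn-null MDSC and 3424 ± 128.9 and 885.3 ± 24.4 units in WT MDSC (mean ± SD), so the arrays of a group differ by more than their spots do.

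Myf6, a factor of late muscle fibre differentiation, had log2 signals of -4.70 and -4.17 in Mstn-null MDSC, -1.18 and -4.35 in WT MDSC, and -4.40 and -4.59 in ESC. It stood out on WT replicate 1, 9.01-fold above WT replicate 2. The other 5 arrays lay within 0.53 of one another, and just 2 of them, Mstn-null replicate 2 and ESC replicate 1, were well above background. Myf6 therefore was not tested.

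Mef2c, a MADS-box cofactor of the myogenic factors that is also used in heart, blood and nerve cells, had 1 spot per array. Its log2 signals were -3.88 and -2.86 in Mstn-null MDSC, -1.61 and -3.94 in WT MDSC, and -6.28 and -7.01 in ESC, where the spot was not well above background. MDSC and ESC arrays did not overlap. Mef2c was at least 3.29-fold higher than in ESC in Mstn-null MDSC (adjusted p = 0.0263) and at least 4.97-fold higher in WT MDSC (adjusted p = 0.0165). Both calls ended with normexp (adjusted p = 0.121 and 0.0572), where the fitted differences were 1.01 and 1.34 in place of 3.27 and 3.87. In WT MDSC the difference was 2.70 without WT replicate 1 and 5.03 without WT replicate 2. The Mstn-null call also ended whichever of the 4 Mstn-null and ESC arrays was left out (adjusted p from 0.0565 to 0.118), and the WT call without either ESC array (adjusted p = 0.0525 without replicate 1 and 0.0832 without replicate 2).

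Msc, the repressor, showed the opposite pattern. Its log2 signals were -6.70 and -6.61 in Mstn-null MDSC and -6.70 and -6.70 in WT MDSC, none of them well above background, and -3.92 and -2.49 in ESC, both of them well above it. Msc was at least 2.65-fold higher in ESC than in Mstn-null MDSC (adjusted p = 0.0042) and at least 2.81-fold higher in ESC than in WT MDSC (adjusted p = 0.00432). The passage 15 ESC array stood 2.69-fold above the passage 12 array. The fitted differences of -3.45 and -3.49 were -2.73 and -2.78 without ESC replicate 2 and -4.16 and -4.21 without ESC replicate 1. With normexp they shrank to -1.10 (adjusted p = 0.0183) and -0.79 (adjusted p = 0.0488), below both bounds in size.

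**Figure D3:**
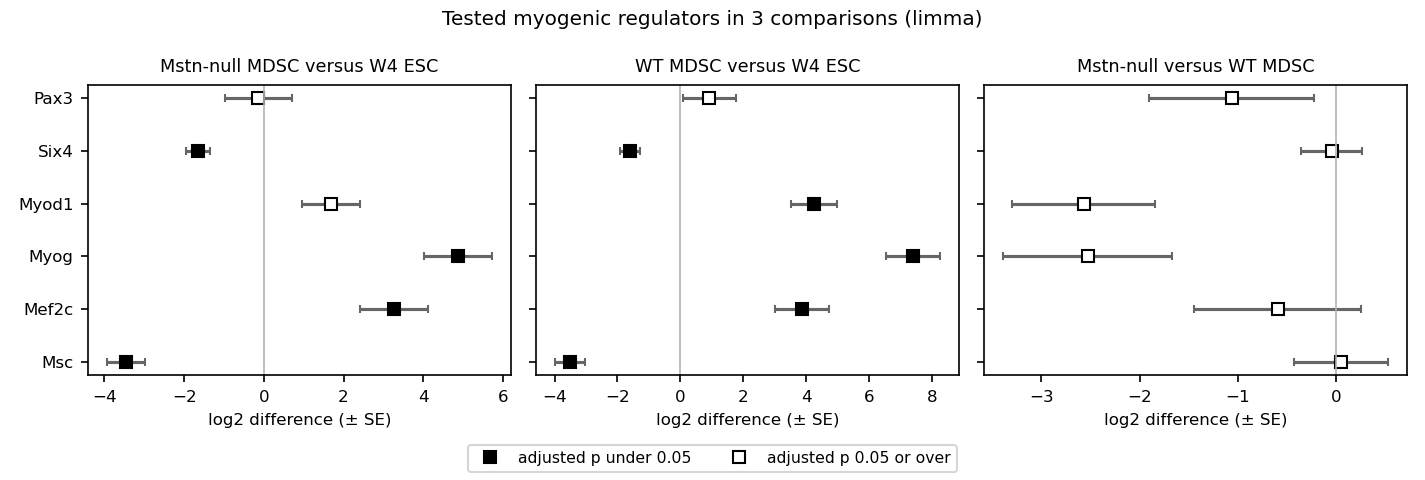
Fitted log2 differences with their standard errors (horizontal axis) for the 6 genes tested, in Mstn-null MDSC versus ESC, WT MDSC versus ESC, and Mstn-null versus WT MDSC; filled squares have a limma adjusted p under 0.05. Myog, Mef2c, Six4 and Msc passed in both comparisons with ESC and Myod1 in that of WT MDSC, and none passed between genotypes. Myog, Myod1, Mef2c and Msc were not well above background on 1 side against ESC, so their fold is a bound.

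Between the cultures labelled Mstn-null and the WT cultures, none of the 6 genes tested passed, and neither did any of the 25055 genes and features (0%; limma, smallest adjusted p = 0.0548, with 3671 at an unadjusted p under 0.05). Quantile normalization called 25 genes in all and none of the 9. With 2 arrays per group the smallest exact permutation p is 0.333, which leaves the fit across genes as the test. Myog was lower on both arrays labelled Mstn-null than on either WT array, by a fitted 2.53 (-2.53 ± 0.85, interval from -4.72 to -0.34, unadjusted p = 0.0313, adjusted p = 0.279). Myod1 was placed alike, with a difference of -2.57 ± 0.73 (interval from -4.43 to -0.70, unadjusted p = 0.0165, adjusted p = 0.211). Without WT replicate 1 the differences were -1.53 for Myog and -1.47 for Myod1, and without WT replicate 2 they were -3.53 and -3.67. On both genes the order of the arrays ran from WT replicate 1 through WT replicate 2 and Mstn-null replicate 1 to Mstn-null replicate 2, and then to the ESC arrays. Without overlap, 34.8% of all genes tested were lower in Mstn-null MDSC and 16.6% higher, so 2 of 6 is near the background.

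The remaining genes gave no separation of the genotypes. Mef2c differed by -0.60 ± 0.85 (adjusted p = 0.795), and the difference turned to 0.57 without WT replicate 1. Pax3 differed by -1.06 ± 0.84 (adjusted p = 0.627), and turned to 0.23 without WT replicate 2. Six4 differed by -0.05 ± 0.31 (interval from -0.84 to 0.74, adjusted p = 0.957), and turned to 0.11 with median centring. Msc was below background in both genotypes, so no fold is given. The median of all genes was -0.12 in this comparison.

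The wider network was described by 4 lists of genes around these factors. Of 16 upstream regulators, 15 were tested, of which 10 were higher and 3 lower in Mstn-null MDSC than in ESC, and 11 higher and 1 lower in WT MDSC. Of all genes, 23.3% were higher and 30.8% lower in Mstn-null MDSC, and 27.1% higher and 25.9% lower in WT MDSC, and the same shares stand behind the counts of the other 3 lists. The 13 calls in Mstn-null MDSC became 7 and 6 without Mstn-null replicate 1 and 2, and 7 without ESC replicate 1. Their median difference from ESC was 1.44 in Mstn-null MDSC and 1.97 in WT MDSC. Over both genotypes, the largest rises were those of Meox2, a homeobox gene of limb muscle progenitors (7.96 ± 0.98, adjusted p = 0.00254), Eya2, a coactivator of Six4 and its relatives (5.52 ± 1.11, adjusted p = 0.0108), and the hindlimb gene Pitx1 (5.29 ± 0.29, adjusted p = 0.000343). The Eya2 call ended without ESC replicate 1 (adjusted p = 0.0701). Eya1, another such coactivator, was lower over both genotypes (-1.37 ± 0.19, adjusted p = 0.00359).

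Some relatives of Six4 went the other way. Picked after their values were seen, Six5 rose over both genotypes by 1.43 (adjusted p = 0.00272) and Six2 by 2.96 (adjusted p = 0.0141). Meox1, a homeobox gene of the somite, was at -5.58 and -5.97 in MDSC labelled Mstn-null, not well above background, at 0.02 and -1.97 in WT MDSC, and at -3.10 and -3.97 in ESC. It was at least 12.4-fold higher in WT than in Mstn-null MDSC, which did not pass (adjusted p = 0.0864). Tcf21 did not rise well above background on any array.

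Partners and coactivators moved in both directions. Of 12, all tested, 5 were higher and 4 lower in Mstn-null MDSC than in ESC, and 5 higher and 3 lower in WT MDSC, while 54.2% and 53.1% of all genes were called. The 9 calls in Mstn-null MDSC became 5 without Mstn-null replicate 2, and the 8 in WT MDSC became 5 without either Mstn-null array or ESC replicate 2. Over both genotypes the largest rises were those of the Mef2 coactivator Mamstr (2.76 ± 0.30, adjusted p = 0.00181), the serum response factor coactivator Mrtfa (1.63 ± 0.16, adjusted p = 0.00136) and the E protein Tcf12 (1.45 ± 0.14, adjusted p = 0.00127). The largest falls were those of Mef2b (-1.73 ± 0.15, adjusted p = 0.00105), the arginine methyltransferase Carm1 (-0.80 ± 0.16, adjusted p = 0.0101) and the E protein Tcf3 (-0.73 ± 0.15, adjusted p = 0.0127). The Tcf3 call ended with median centring (adjusted p = 0.0643) and when replicate 2 of Mstn-null MDSC (adjusted p = 0.0509) or of ESC (adjusted p = 0.0556) was left out. E proteins thus had calls in both directions.

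More inhibitors of the myogenic factors were called higher than lower in MDSC. Of 18, all tested, 11 were higher and 0 lower in Mstn-null MDSC than in ESC, and 11 higher and 1 lower in WT MDSC, with medians of 1.81 and 1.93, where 23.3% and 27.1% of all genes were higher. The 11 calls in Mstn-null MDSC became 6 without Mstn-null replicate 2 and 7 without either ESC array, and the 12 in WT MDSC became 8 without WT replicate 1 or ESC replicate 2. Over both genotypes the largest rises were those of the zinc finger repressors Snai2 (3.74 ± 0.49, adjusted p = 0.00292) and Snai1 (3.26 ± 0.49, adjusted p = 0.00435) and of Id3, which binds E proteins and keeps them from DNA (2.85 ± 0.17, adjusted p = 0.000402). Mdfi, a binder of myogenic factors, was lower (-1.46 ± 0.48, adjusted p = 0.0492) and lost its call with median centring (adjusted p = 0.0502) and whichever of the 4 Mstn-null and ESC arrays was left out (adjusted p from 0.098 to 0.22). Many of these genes, such as Snai1, Snai2, Twist1 and Zeb1, are also general genes of fibroblasts and other mesenchymal cells. The summed level of 7 fibroblast markers, all well above background on each MDSC array, was 80888 and 109238 in Mstn-null MDSC, 90280 and 52107 in WT MDSC, and 5332 and 2247 in ESC, in percent of the 75th percentile signal. Their mean log2 level was 6.04 and 6.31 in Mstn-null MDSC, 6.04 and 5.10 in WT MDSC, and 2.67 and -0.76 in ESC. The ESC arrays thus differed from each other in these fibroblast markers, with 7 well above background on replicate 1 and 6 on replicate 2. The part of these cells in the result was not tested.

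Muscle genes, many of them known targets of Myod1 and Myog, were highest on 1 WT array. Of 32, 31 were tested, of which 6 were higher and 1 lower in Mstn-null MDSC than in ESC, and 17 higher and 1 lower in WT MDSC. Against the 23.3% and 27.1% of all genes that were higher, the count in Mstn-null MDSC was below the background. Some of the 31, such as Mybph, Musk and Ckm, entered the fit through MDSC arrays alone, so these counts do not by themselves set the list apart. Their mean log2 level was -0.58 and -0.93 in Mstn-null MDSC, 2.63 and -0.43 in WT MDSC, and -2.25 and -2.29 in ESC. WT replicate 1 thus stood far above the other 3 MDSC arrays, which lay close together. That array also had the highest Myog, Myod1, Myf6 and Mef2c signals. The number called in Mstn-null MDSC against ESC was 7, and 3 without either Mstn-null array, 4 without either ESC array, 19 without WT replicate 1 and 20 without WT replicate 2. In WT MDSC it was 18, and 28 without WT replicate 2, 5 without ESC replicate 1 and 6 without ESC replicate 2.

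Over both genotypes the largest rises were those of the myosin light chain gene Myl1 (8.43 ± 1.09, adjusted p = 0.00286), Mybph, a myosin binding protein gene (at least 31.6-fold, adjusted p = 0.00613), and Chrna1, the acetylcholine receptor alpha subunit gene and a textbook target of the myogenic factors (5.35 ± 0.91, adjusted p = 0.00643). Chrna1 had log2 signals of 0.61 and 0.10 in Mstn-null MDSC, 4.23 and 1.08 in WT MDSC, and -3.44 and -4.25 in ESC, the same order of arrays as Myog. Musk, a receptor kinase gene of the neuromuscular synapse picked after its values were seen, was at least 9.47-fold higher (adjusted p = 0.00117). Mybph and Musk were not well above background on either ESC array and entered the fit through MDSC arrays alone. Their tests therefore use ESC signals not well above background. The only muscle gene called lower was Mymx, a gene of myoblast fusion (-4.35 ± 0.79, adjusted p = 0.00796). By its probe, Mymx stood at -0.15 and -1.09 in Mstn-null MDSC, 2.72 and 0.03 in WT MDSC, and 4.79 and 4.66 in ESC.

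Between genotypes no gene of the 4 lists passed. The median difference of the 31 muscle genes was -2.01, and it was -0.32 without WT replicate 1 and -3.79 without WT replicate 2, so its size rests on WT replicate 1. With all arrays 30 of them had lower means in MDSC labelled Mstn-null, and 17 did so without overlap, where 34.8% of all genes were lower without overlap. The medians of the other lists were -0.12 for upstream regulators, -0.21 for partners and coactivators and -0.02 for inhibitors.

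**Figure D4:**
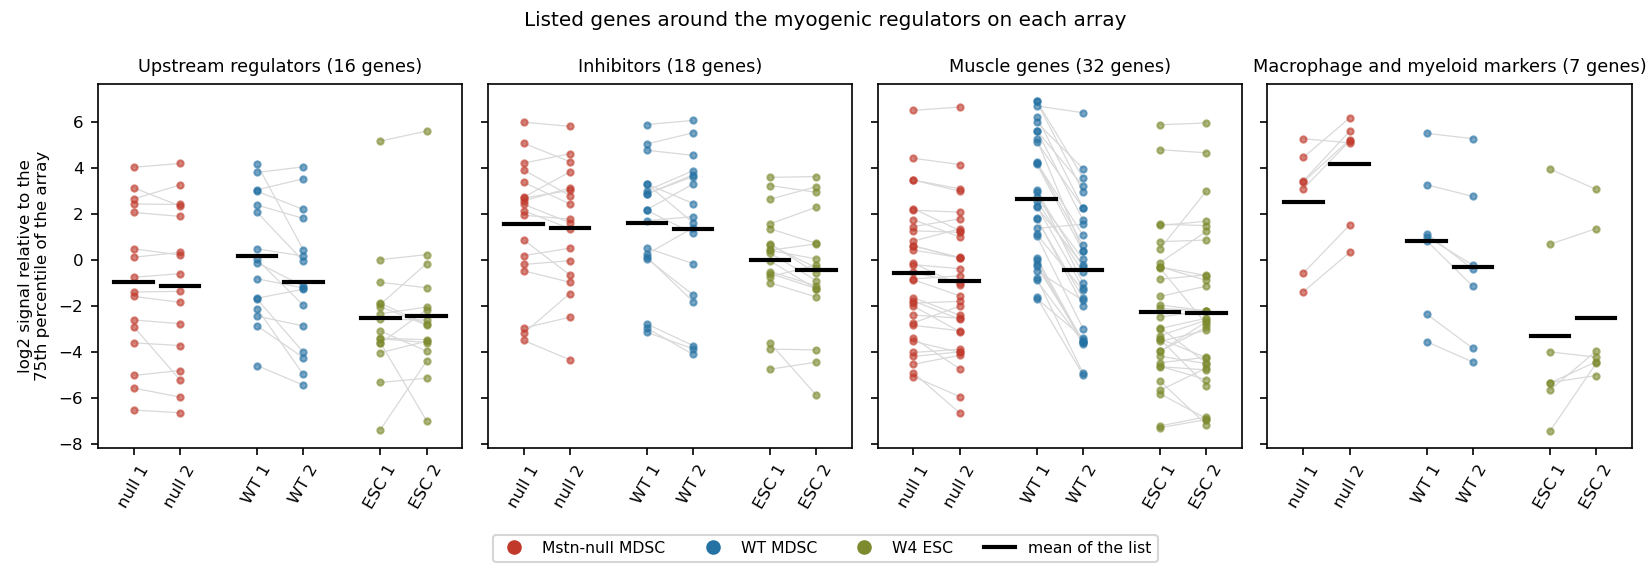
Log2 signals relative to the 75th percentile of each array (vertical axis) for every gene with a probe in the lists of upstream regulators (16), inhibitors (18), muscle genes (32) and macrophage and myeloid markers (7) on the Mstn-null, WT and ESC arrays; thin lines join the 2 arrays of a group and black bars are list means. The muscle genes average 2.63 on WT replicate 1 and -0.93 to -0.43 on the other MDSC arrays, and the macrophage markers average 2.52 and 4.15 in Mstn-null MDSC, 0.83 and -0.29 in WT MDSC and -3.31 and -2.53 in ESC.

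The arrays measured whole cultures, in which fewer cells of a type and less RNA per cell cannot be told apart. Markers of other cell types also differed between arrays. All 7 macrophage and myeloid markers with a probe were higher in Mstn-null MDSC than in ESC, where 23.3% of all genes were. In WT MDSC 5 were higher, against 27.1% of all genes. Ptprc, 1 of these markers, was not well above background on either ESC array. Between genotypes, 6 of 7 were higher on both arrays labelled Mstn-null than on either WT array, where 16.6% of all genes were, though none passed. Their summed level was 9131 and 23113 in Mstn-null MDSC, 6125 and 4754 in WT MDSC, and 1718 and 1115 in ESC, in percent of the 75th percentile signal. Itgam was the brightest of these markers on every WT and ESC array and weighed most in those sums. Its log2 signals were 5.27 and 5.09 in Mstn-null MDSC, 5.50 and 5.27 in WT MDSC, and 3.95 and 3.06 in ESC. The array with the highest macrophage level, Mstn-null replicate 2, had the lowest Myog and Myod1 signals of the MDSC arrays. Within WT MDSC it was otherwise: replicate 1 had the higher macrophage level and also the higher Myog and Myod1 signals. The part of these cells in the differences of Myog and Myod1 was not tested.

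The labelled identities were checked against markers. Of 8 satellite cell markers, Vcam1, Ncam1, Sdc3, Sdc4 and Itga7 exceeded the background limit on all 4 MDSC arrays, Cxcr4 on both Mstn-null arrays and neither WT array, Chodl on WT replicate 1 only and Calcr on no MDSC array. The first 5 and Calcr also exceeded it on both ESC arrays, so detection of these markers did not set MDSC apart. By level, 4 of the 7 tested were higher and 1 lower in Mstn-null MDSC than in ESC. In WT MDSC 3 were higher and 1 lower. Of all genes, 23.3% were higher and 30.8% lower in Mstn-null MDSC, and 27.1% and 25.9% in WT MDSC. Of the factors that define satellite cells, Pax7 was well above background on WT replicate 1 alone among the MDSC arrays and Myf5 on none. Itga7 stood at 0.95 and 1.50 in Mstn-null MDSC, 4.27 and 1.48 in WT MDSC, and -0.76 and 0.37 in ESC, highest on WT replicate 1. Chodl was also highest on that array (-3.70). The remaining markers were not: Ncam1 and Vcam1 were highest on Mstn-null replicate 2 (4.14 and 4.39), and Sdc4 was lowest on WT replicate 1 (1.08). The 7 pluripotency markers averaged -4.47 and -4.31 in Mstn-null MDSC, -4.22 and -4.17 in WT MDSC, and 6.32 and 6.49 in ESC.

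The other marker lists bear on single genes. Pax3 is also a gene of the neural crest, and Mef2c one of heart and B cells. The 5 Schwann and neural crest markers averaged -1.62 and -1.93 in Mstn-null MDSC, -0.77 and -1.29 in WT MDSC, and -2.71 and -2.78 in ESC. Among them S100b was highest on WT replicate 2 (1.23, against -0.91 to -0.78 on the other MDSC arrays), the array with the high Pax3 signal, and the other 4 were not. Of 5 B cell markers, 0 were well above background in Mstn-null MDSC, 1 and 0 in WT MDSC, and 3 and 2 in ESC. The 5 cardiac markers averaged between -5.03 and -4.49 on the MDSC arrays and -2.48 and -1.78 in ESC. The 6 endothelial markers averaged -2.31 and -3.15 in Mstn-null MDSC, -2.44 and -2.94 in WT MDSC, and -3.22 and -3.26 in ESC. The 7 pericyte and smooth muscle markers averaged 3.25 and 3.24 in Mstn-null MDSC, 3.29 and 2.46 in WT MDSC, and -0.50 and 0.40 in ESC. The part of any of these cell types in the signals of Pax3 and Mef2c was not tested.

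For each of the 6 genes tested, the 3 most similar named genes by Pearson r over the 6 arrays were taken from 15469. With 3 groups in 6 arrays, r mostly reflects the same MDSC and ESC levels and is only a description. Myod1 was most like Ank1, a muscle membrane skeleton gene (r = 0.9989), E230025N22Rik (0.9955) and Cavin4, a caveola gene of muscle (0.994). Ank1 stood at -3.67 and -3.88 in Mstn-null MDSC, -0.42 and -2.44 in WT MDSC, and -5.22 and -5.50 in ESC. Myog was most like 2810410L24Rik (0.9969), Aqp4, a water channel gene (0.9949), and Clec1b (0.9941). Mef2c was most like Mettl7a3 (0.9978), Olfr30 and P2rx6 (0.9965 each).

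Pax3 was most like Synb (0.9969), Klk10 (0.9929) and Pygo2 (0.9868), each highest on WT replicate 2. Only 14 genes exceeded an r of 0.95 with Pax3 and 96 with Myod1, while 312 did with Myog, 341 with Mef2c, 1385 with Six4 and 2054 with Msc. Six4 was most like Foxr2 (0.9986), followed by Bbc3 (0.9962). Msc was most like Dusp26 and Gm13043 (0.9999 each) and Aqp6 (0.9998), which also were at low signal on all MDSC arrays.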

How the data were processed

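Cy3-labelled total RNA from 6 cultures was hybridised to Agilent mouse arrays read in 1 colour, as the labels' protocols describe. The deposited files hold spot intensity values made by the authors in Agilent Feature Extraction. Per the file headers its version was 10.7.1.1, whereas the submitters' processing notes name 9.1. Background had been corrected in the processed intensity, per the file headers, but arrays had not been scaled to one another. Per the file headers, the array design rests on mouse build mm9, so RefSeq tables of GRCm38.p6 gave names and promoter sequence but no position for a probe.

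Values were log2 of the processed signal less the 75th percentile of non-control spots on the same array. Outlier spots (100 to 122 per array) were left out and the spots of a probe averaged, and 23 of 55681 probes lost all spots on an array and were dropped. Accessions gave 26413 probes 1 symbol and left 29268 without one. A probe was well above background on an array if more than 50% of its used spots were. The probe with the highest mean stood for its gene, which was tested if both arrays of some group were well above background. The 3 groups were fitted in 1 model without covariates with limma 3.58.1 in R 4.3.3 (two-sided, 3 residual and 2.02 prior degrees of freedom), and adjusted p is Benjamini-Hochberg over all 25055 tested, with a threshold of 0.05. Where no array of 1 side was well above background, the fold is a bound: the mean of the bright side over a floor, which on each dim array was its lowest well-above-background signal or the probe's own, whichever was higher, averaged over arrays. The MDSC arrays are separate isolations per the labels, while the ESC arrays come from 1 line at different passages, so its spread may understate that among lines.

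The 9 genes and all lists were chosen with earlier results of these data known. From each pathway list, the 3 largest rises and 3 largest falls past the threshold in MDSC of both genotypes versus ESC were named, or fewer where fewer passed (some are not reported here); no gene passed between genotypes. Of 136 list entries, 135 had a probe (Cd68 had none). The steps were tested on simulated data. Alternatives were quantile normalization, centring on the median, normexp (offset 50) run on the median signal (the mean signal that was planned is not used here), 2 other filters on dim genes, outlier flags kept, 2 other ways to treat probes of a gene, a trended and robust variance, only the groups compared, slide 2 alone, a replicate block, and leaving out each array.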

Additional observations from a re-analysis of the deposited data

How the results depend on the processing

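Of 372 differences of the 6 genes tested under alternatives, 341 kept their direction and side of the threshold, 15 lost a call, 6 gained one and 10 changed sign. No difference whose call had passed changed sign. With only genes well above background on all 6 arrays, 2 of the 9 genes were tested and 1 was called in each comparison with ESC. Six4 is the only called gene that is then still tested. Of all 19852 genes tested in that setting, 11184 were called in Mstn-null MDSC, 10985 in WT MDSC and 12243 for both genotypes. With normexp, 3 of the 9 were called in MDSC of both genotypes versus ESC, as were 14977 of all 25052 genes tested. Between genotypes, 25 of all genes were called with quantile normalization (11 higher and 14 lower) and 8 with each probe on its own (5 and 3), none of them among the 9.

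Slide 2 holds no WT array, so it gave values for Mstn-null MDSC versus ESC alone. With 1 array left out, a group of 1 array is assumed to vary like the others. The number of the 9 genes called then ranged from 3 to 5 in Mstn-null MDSC versus ESC, from 3 to 6 in WT MDSC versus ESC, from 3 to 6 for both genotypes and from 0 to 0 between genotypes. Over all genes it ranged from 7972 to 12910, from 9385 to 11028, from 11885 to 13859 and from 0 to 0, lowest in the first without Mstn-null replicate 2. Median centring turned the split of all genes in Mstn-null MDSC versus ESC to 6252 higher and 5471 lower, against 5849 and 7723.

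The changes of sign were in differences that had not passed. Pax3 turned to 0.0847 in Mstn-null MDSC versus ESC with median centring and ranged from -0.36 to 0.0794 with 1 array left out. It ranged from -0.37 to 2.22 in WT MDSC versus ESC, from -0.25 to 1.04 for both genotypes and from -2.36 to 0.23 between genotypes. Between genotypes, Six4 was 0.11 with median centring and ranged from -0.47 to 0.36 (0.04 without WT replicate 2), Mef2c ranged from -1.76 to 0.57, and Msc was -0.30 with normexp. The cause was not tested.

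The isolation numbers are shared by both genotypes, and no label says that a number marks a common day or litter. The deviations of same-numbered isolations correlated with r of -0.397 over 25055 genes, so the numbers were not taken as pairs. With the replicate block, 0 of the 9 genes and 0 of all genes were called, with Myog at -2.53 (adjusted p = 0.342) and Myod1 at -2.57 (adjusted p = 0.372); with crossed pairing, added after seeing the data, 0 and 0 were called. Leaving out 1 array for the list counts was also added after seeing the data. Myf5, Pax7, Myf6, Msc in MDSC and Mef2c, Myod1 and Myog in ESC were limited by signal over background, so their absence was not shown.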
